A study of Mus musculus with 8 samples.

Results

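The genes described here are 46 genes of mitosis, the spindle and cytokinesis, picked by symbol from a table of 41444 mouse genes. They comprise mitotic kinases and cyclins, spindle checkpoint and kinetochore genes, spindle and midzone kinesins, and cytokinesis genes, and each symbol matched 1 gene. All 46 had a mean of at least 4 on the log2 scale over the 8 libraries, the minimum for testing, which 11851 genes reached. They were read in bone marrow derived macrophages (BMDM) of wild-type C57BL/6 mice, grown from flushed marrow with macrophage colony-stimulating factor (M-CSF). The SLIT2 group had 4 samples given 6 nM SLIT2, a secreted ligand of ROBO receptors, for 16 hours, and the vehicle group had 4 samples given vehicle control. The question is which genes SLIT2 turns up or down in these cells, and values are regularized-log (rlog) expression on a log2 scale.

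M-CSF drives the survival and the division of macrophages grown from marrow, so such a culture holds a share of dividing cells. Mitotic genes are transcribed mainly late in the cell cycle. In general CDK1 with its cyclins starts mitosis, the checkpoint holds the chromosomes until every kinetochore is attached to the spindle, and separase then opens cohesin. The midzone kinesins and the contractile ring finally divide the cell. In RNA from a whole culture, fewer dividing cells and less RNA per dividing cell cannot be told apart.

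The libraries differed by replicate number before any effect of treatment. Replicates 1 and 2 lay close together in each group, with a median absolute difference of 0.06 over the genes tested, as did replicates 3 and 4. Across these sets the median absolute difference was 0.17 to 0.19 in the SLIT2 group and 0.18 to 0.19 in the vehicle group. Xist, a noncoding RNA of the inactive X chromosome, ranged from 7.47 to 7.65 in replicates 1 and 2 and from 12.69 to 12.79 in replicates 3 and 4. The Y-linked gene Ddx3y ranged from 10.75 to 10.83 and from 5.90 to 6.45 in the same libraries. Nothing in the labels says what a replicate number stands for. The 12 macrophage markers examined, among them Csf1r and Cd68, were all above the minimum for testing.

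Kif23, Stmn1 and Cit fell with SLIT2, and the remaining 43 genes did not pass the limma test over all samples. The 3 genes that fell were 6.52% of the 46, where 6.58% of all genes tested were called lower, so the share is close to that of the background. Of all genes tested 13.3% were called in either direction. None of the 46 was called higher by limma, against 6.76% of all genes. At an unadjusted p of 0.05, 7 were lower and 0 higher. The direction was nonetheless mostly downward. A negative difference was found in 40 of the 46 genes, or 87.0%, against 49.4% of all genes tested. Most of the 46 genes shifted the same way between the sets (44 in vehicle and 40 in SLIT2 libraries, without overlap). They are thus not independent observations, and this holds for each count of direction given below. The median difference was -0.30, against 0.0025 over all genes tested. It was -0.174 without SLIT2 replicate 3, and -0.135, -0.162 and -0.46 without vehicle replicates 1, 2 and 3. Each of these fits left the sets unequal between the groups, and the sets differed in level. The median change of the 46 genes from replicates 1 and 2 to replicates 3 and 4 was -0.78 in vehicle and -0.57 in SLIT2 libraries. These medians thus cannot be read as the weight of a single library alone. With the replicate number as a block, which takes out the spread between the sets, 19 genes were called lower (41.3%, against 16.4% of all genes) and 1 higher, against 16.6%. Of these 20 calls, Kif23, Stmn1 and Cit were kept and 17 were lost when each pair of duplicates was averaged, with adjusted p-values of 0.072 to 0.191. The block test, like the fit without a block, takes the near-duplicate libraries as separate samples. The loss holds for each of the 17 genes where a block call is given. Block calls of genes outside the 46 rest on the same libraries. Of all genes tested, 3912 were called with the replicate block and 688 with duplicates averaged. Averaging leaves 1 value per group and set, so that fit has few residual degrees of freedom and little power. A call lost there does not show that an effect is absent. By step, the block called lower 4 of 6 entry kinases and cyclins, 3 of 4 checkpoint genes, 5 of 9 midzone and cytokinesis genes and 3 of 5 spindle assembly genes. It called lower 2 of 6 spindle kinesins, 1 of 4 genes of the chromosomal passenger complex, with 1 more higher, and Top2a but not Mki67. It called 0 of 6 kinetochore genes and 0 of 4 genes of anaphase and exit. The steps hold few genes each, so these shares do not rank them.

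Within each set the SLIT2 and vehicle values could be compared without the spread between sets. In replicates 1 and 2, both SLIT2 values lay below both vehicle values for 37 of the 46 genes, or 80.4%, against 33.1% of all genes tested. In replicates 3 and 4 that was so for 23 of the 46, against 31.4% of all genes. It was so in both sets for 21 genes, or 45.7%, against 21.0%. The reverse order, SLIT2 above vehicle, was found for Aurkb and Kif2c in replicates 1 and 2 (34% of all genes) and for Cenpa, Aurkb, Kif20a and Mki67 in replicates 3 and 4 (32.5% of all genes). In both sets it was found for Aurkb and for none of the other 45, against 21.7% of all genes. The difference was negative for 41 of the 46 in replicates 1 and 2 (89.1%, against 49.5% of all genes) and for 37 in replicates 3 and 4 (80.4%, against 48.8%). The median difference of the 46 genes was -0.42 over replicates 1 and 2, against -0.14 over replicates 3 and 4.

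The level of these genes also differed between the sets in either group. The median over the 46 genes was 7.34, 7.40, 6.92 and 6.92 in SLIT2 replicates 1 to 4. In vehicle replicates 1 to 4 it was 7.76, 7.78, 6.89 and 7.02. The lower set was thus replicates 3 and 4 in each group, and the SLIT2 and vehicle medians were close to each other there. Replicates 3 and 4 lay below replicates 1 and 2 without overlap for 40 of 46 genes in the SLIT2 group and for 44 of 46 in the vehicle group. Of all genes tested 39.3% did so in the SLIT2 group and 39.3% in the vehicle group.

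**Figure D1:**
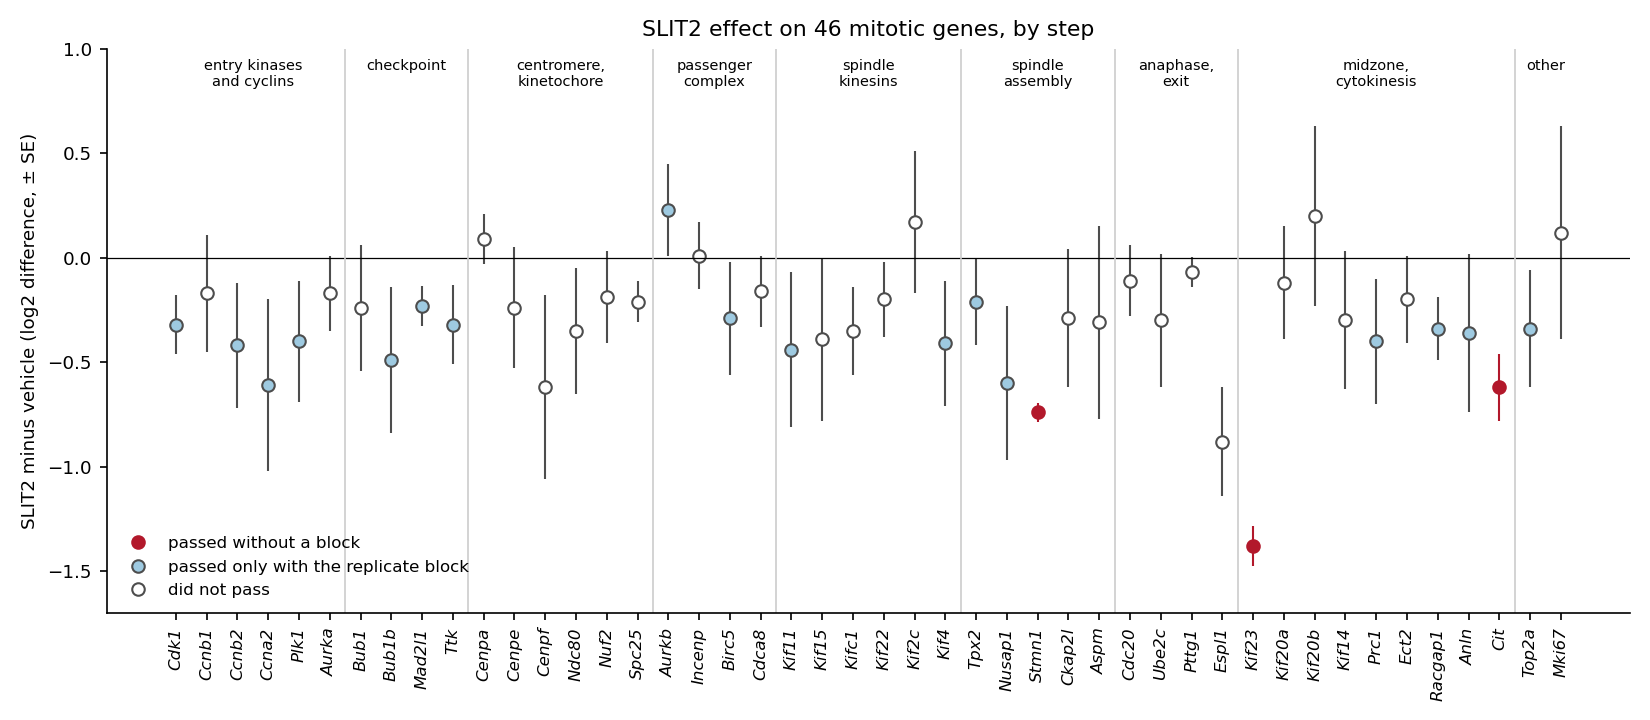
Difference of SLIT2 minus vehicle in rlog expression (log2 scale, y axis) for each of the 46 genes, in the order of mitotic steps along the x axis. Bars are the standard error of the limma fit without a block (n = 4 libraries per group). Kif23, Stmn1 and Cit (filled red) passed without a block, 17 genes passed only with the replicate block, and 40 of 46 points lie below 0.

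The promoters of these genes share letters that the choice of genes did not use. Genes of late cell cycle are known to carry a cell cycle genes homology region (CHR), bound by the DREAM and MYB-MuvB complexes, together with boxes that bind the factor NF-Y. RefSeq promoters of 300 bases (250 before to 50 after a transcript start, GRCm38.p6) were found for 40 of the 46 genes, with 42 starts. Kif20a, Ccna2, Incenp, Aurkb, Stmn1 and Tpx2 had no entry. The CHR was searched as TTTGAA or TTCGAA and the box as CCAAT, on both strands. A CHR match was present in 34 of 42 promoters (81.0%), against 19.2% of all 32851 promoters, and a CCAAT match in 31 of 42 (73.8%), against 37.4%. In the list of other mitosis genes counted below, 36.8% of promoters had a CHR match and 56.0% a CCAAT match. For the replication and S-phase genes these shares were 22.4% and 53.1%. In the stretch from 40 bases before to 50 bases after the start, 73.8% of the promoters of the 46 genes had a CHR match, against 4.74% of all. There the share was 23.2% for the other mitosis genes and 10.2% for the replication and S-phase genes. In 1 case among these genes a CHR match overlapped a CCAAT match. The match is a description of letters, and binding was not measured.

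Some of these promoters are shown as far as 85 bases before and 15 bases after the transcript start, on the strand of the gene, with CHR and CCAAT matches in capitals. They were picked after the values were seen, to set Kif23 beside its partner Racgap1 and beside genes of entry, spindle and exit.
Kif23 (chr9:61946785-61946884, minus strand): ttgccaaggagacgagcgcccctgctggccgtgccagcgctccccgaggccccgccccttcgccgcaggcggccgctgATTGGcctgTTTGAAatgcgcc
Cdk1 (chr10:69352898-69352997, minus strand): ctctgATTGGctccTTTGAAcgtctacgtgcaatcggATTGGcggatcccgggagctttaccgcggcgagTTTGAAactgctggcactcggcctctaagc
Cdc20 (chr4:118437329-118437428, minus strand): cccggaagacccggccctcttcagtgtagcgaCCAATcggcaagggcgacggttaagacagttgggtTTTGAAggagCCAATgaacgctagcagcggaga
Ube2c (chr2:164769844-164769943, plus strand): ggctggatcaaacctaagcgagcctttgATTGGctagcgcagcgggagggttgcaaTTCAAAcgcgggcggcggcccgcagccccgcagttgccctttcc
Espl1 (chr15:102296208-102296307, plus strand): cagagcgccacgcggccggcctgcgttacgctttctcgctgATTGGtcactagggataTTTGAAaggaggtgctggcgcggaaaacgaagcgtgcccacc
Kif11 (chr19:37376297-37376396, plus strand): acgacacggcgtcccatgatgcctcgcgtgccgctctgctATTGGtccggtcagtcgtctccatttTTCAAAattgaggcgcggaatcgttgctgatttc
Racgap1 (chr15:99651642-99651741, minus strand): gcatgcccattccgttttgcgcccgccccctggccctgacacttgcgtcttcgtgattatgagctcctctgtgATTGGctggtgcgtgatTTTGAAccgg
Ccnb2 (chr9:70421540-70421639, minus strand): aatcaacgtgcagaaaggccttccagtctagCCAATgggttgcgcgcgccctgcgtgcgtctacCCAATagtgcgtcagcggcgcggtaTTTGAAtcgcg
In Kif23 the CHR match began at position 3 and the CCAAT match at position -7. Position 1 is the first base of the RefSeq transcript, and no position is numbered 0. In GENCODE M21 Kif23, on the minus strand, begins at 61946774, downstream of the whole window shown. The positions and the shares near the start thus depend on the RefSeq start used. Racgap1 had the same order as Kif23, with the CHR at position 6 and the CCAAT match at position -12. Cdk1 had CHR matches at positions -71 and -15. Cit, the other called gene with a promoter entry, had neither motif in its 300 bases, and nor did Birc5, Mad2l1, Nuf2, Nusap1 and Pttg1. The promoters shown above all carry both motifs. A CHR match was found in 12 of the 16 genes called lower with the replicate block that had a promoter and in 20 of the 24 such genes that were not called.

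**Figure D2:**
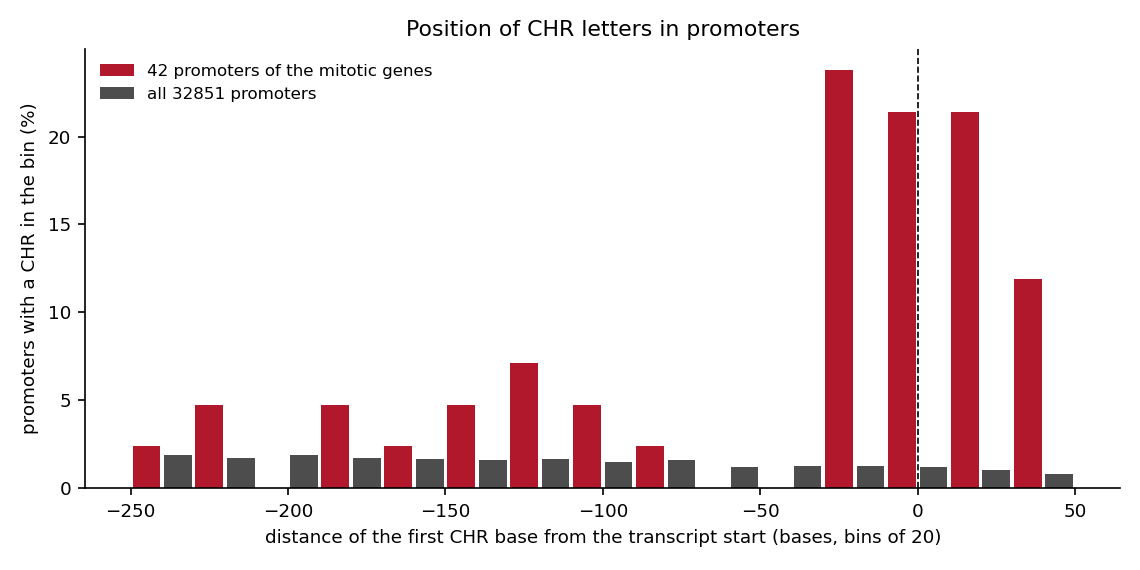
Share of promoters (y axis, percent) in which a CHR match begins in each bin of 20 bases (x axis, distance from the transcript start), for the 42 promoters of the mitotic genes (red) and all 32851 promoters (grey). The mitotic genes peak at 23.8% in the bin that begins 30 bases before the start, against 1.24% of all promoters.

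Among the kinases and cyclins that start mitosis, all 6 had a negative difference and none passed the limma test without a block, with 1 at an unadjusted p under 0.05. Cdk1, the kinase that drives entry (chromosome 10, 69335146 to 69352938 in GRCm38), had 9.05, 8.88, 8.58 and 8.66 in SLIT2 replicates 1 to 4. It had 9.28, 9.29, 8.85 and 9.01 in vehicle replicates 1 to 4. In each set the SLIT2 libraries lay lower, while the groups as a whole overlapped. The difference was -0.32 (SE 0.14, limma adjusted p = 0.187, and 0.00451 with the replicate block). Within the sets it was -0.32 (replicates 1 and 2) and -0.31 (replicates 3 and 4).

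Ccna2, the gene of cyclin A2, had a difference of -0.61, with -0.84 in replicates 1 and 2 and -0.38 in replicates 3 and 4. Its values were 8.06, 8.15, 7.14 and 7.26 in SLIT2 libraries and 9.05, 8.84, 7.42 and 7.75 in vehicle libraries. The 2 sets lay farther apart than the groups did. The adjusted p was 0.409, and 0.00961 with the replicate block, and the block also called Ccnb2 (-0.42, adjusted p = 0.0236 with the block) and Plk1 (-0.40, 0.0109). Ccnb2 encodes cyclin B2 and Plk1 the polo-like kinase of spindle poles and kinetochores. Ccnb1, of cyclin B1, differed by -0.17 and Aurka, of the spindle pole kinase Aurora A, by -0.17, and neither was called by either fit.

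The 4 spindle checkpoint genes had differences between -0.49 and -0.23, and none passed without a block. Mad2l1, whose protein binds and holds back CDC20, had 8.98, 8.90, 8.81 and 8.90 in SLIT2 libraries and 9.31, 9.25, 8.92 and 9.02 in vehicle libraries. Every SLIT2 library except replicate 1 lay below every vehicle library. The difference was -0.23 (SE 0.095, adjusted p = 0.171, and 0.0309 with the block). Bub1b, of the checkpoint protein BUBR1, had a difference of -0.49 (block adjusted p = 0.0267) and Ttk, of the checkpoint kinase MPS1, had -0.32 (0.0128). Bub1, of a kinase that recruits other checkpoint proteins to kinetochores, differed by -0.24 and was not called (0.066 with the block).

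No centromere or kinetochore gene was called in either fit, with 0 of 6 also at an unadjusted p under 0.05. Spc25, of the NDC80 complex that binds microtubules, had the smallest p. Its values were 7.67, 7.84, 7.88 and 7.83 in SLIT2 libraries and 8.21, 8.07, 7.76 and 8.01 in vehicle libraries, and vehicle replicate 3 lay within the SLIT2 range. The difference was -0.21 (SE 0.10, adjusted p = 0.249). Ndc80 and Nuf2 of the same complex differed by -0.35 and -0.19. Cenpa, the histone H3 variant that marks centromeres, differed by 0.09 (adjusted p = 0.723).

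Cenpe encodes a kinetochore kinesin and Cenpf a large kinetochore protein. Cenpe differed by -0.51 in replicates 1 and 2 and by 0.03 in replicates 3 and 4, and a limma interaction test between the sets, whose error comes from duplicates alone, gave an adjusted p of 0.0454. Of all genes tested 4.4% passed that test, and of the 46 genes 2 did. Cenpf had 6.59, 7.45, 5.58 and 5.62 in SLIT2 libraries and 7.28, 7.29, 6.89 and 6.24 in vehicle libraries. Its SLIT2 replicates 1 and 2 lay far apart, and its difference of -0.62 (SE 0.44) was not called (adjusted p = 0.439). The sets gave -0.26 and -0.96, and the interaction test did not pass (adjusted p = 0.379).

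None of the 4 genes of the chromosomal passenger complex passed without a block or at an unadjusted p under 0.05, and with the block Aurkb was called higher and Birc5 lower. The complex is formed by the kinase Aurora B (Aurkb), INCENP (Incenp), survivin (Birc5) and borealin (Cdca8), and corrects faulty attachments of chromosomes. Aurkb (chromosome 11, 69045647 to 69051664) had 8.31, 8.22, 7.76 and 7.64 in SLIT2 libraries and 8.09, 8.07, 7.34 and 7.52 in vehicle libraries. It was higher with SLIT2 inside each set, by 0.18 in replicates 1 and 2 and 0.27 in replicates 3 and 4, and over all samples by 0.23 (SE 0.22, adjusted p = 0.593, 0.0472 with the block and 0.149 with duplicates averaged). Birc5 had 7.35, 7.26, 6.41 and 6.75 in SLIT2 libraries and 7.62, 7.54, 6.72 and 7.06 in vehicle libraries. Its difference was -0.29 (adjusted p = 0.562, and 0.0105 with the block). Incenp differed by 0.01 and Cdca8 by -0.16, and neither was called.

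The level of Aurkb relative to its partners was then taken in each library, as Aurkb minus the mean of Incenp, Birc5 and Cdca8. This log2 ratio was -0.23 ± 0.11 in SLIT2 libraries and -0.60 ± 0.11 in vehicle libraries (SD, n = 4 each). The difference was 0.37. Within the sets it was 0.32 (replicates 1 and 2) and 0.42 (replicates 3 and 4). This ratio and the ratios of Espl1 to Pttg1 and of Kif23 to Racgap1 were chosen after the values were seen, so they are given without a test. They are not corrected for transcript length, so they compare the groups and do not give the relative abundance of 2 genes. Their SD takes near-duplicate libraries as separate samples.

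Of the 6 kinesins of spindle assembly and chromosome movement, 5 had a negative difference, and none passed without a block or at an unadjusted p under 0.05. Kifc1, a minus-end motor that focuses spindle poles, had the smallest p, with 6.62, 6.76, 6.63 and 6.29 in SLIT2 libraries and 7.36, 7.24, 6.53 and 6.58 in vehicle libraries. Its SLIT2 values lay clear below vehicle in replicates 1 and 2 and overlapped them in replicates 3 and 4. The difference was -0.35 (SE 0.21, adjusted p = 0.348, and 0.0949 with the block). Kif11, the motor that pushes spindle poles apart, differed by -0.44 (0.00959 with the block) and the chromokinesin Kif4 by -0.41 (0.0412 with the block). Kif15, which also works on the bipolar spindle, differed by -0.39 and the chromokinesin Kif22 by -0.20, neither called. Kif2c, a kinesin that takes microtubules apart at centromeres, differed by 0.34 in replicates 1 and 2 and by 0.00 in replicates 3 and 4, and was called in neither fit over all samples.

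Of 5 genes of spindle assembly and microtubules, Stmn1 fell. It encodes stathmin, which binds free tubulin and destabilizes microtubules, and lies on chromosome 4 (134468320 to 134473843). Its values were 10.19, 10.15, 10.04 and 10.17 in SLIT2 libraries and 10.90, 10.87, 10.86 and 10.89 in vehicle libraries. The groups were far apart and the ranges of the sets overlapped in each. The difference was -0.74 (SE 0.045, limma adjusted p = 6.1e-05, and 0.0291 with duplicates averaged), a level 40.2% lower on the linear scale of the rlog values. Replicates 1 and 2 gave -0.72 and replicates 3 and 4 gave -0.77. Per kilobase of its longest coding transcript, Stmn1 also had the highest level of the 46 genes, with an rlog minus log2 kilobases of 10.06 in SLIT2 libraries and 10.80 in vehicle libraries. The lowest level was that of Kif14, at 2.14 and 2.45 in the same groups.

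The other 4 genes of this step differed more between the sets than between SLIT2 and vehicle. Nusap1, which bundles spindle microtubules, differed by -0.60 (adjusted p = 0.364, and 0.00837 with the block) and Tpx2, which activates Aurora A on the spindle, by -0.21 (0.599, and 0.0252). Ckap2l and Aspm, of proteins of the spindle and its poles, differed by -0.29 and -0.31 and were not called in either fit. In Aspm, replicates 3 and 4 minus replicates 1 and 2 came to -0.98 in SLIT2 libraries and -1.52 in vehicle libraries, more than the SLIT2 difference.

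Of the 4 genes of anaphase and mitotic exit, none passed without a block or with the replicate block, and 1 was lower at an unadjusted p under 0.05. Espl1 encodes separase, the protease that opens cohesin (chromosome 15, 102296266 to 102324357), and had 4.62, 4.58, 5.32 and 5.27 in SLIT2 libraries and 6.33, 6.06, 5.37 and 5.55 in vehicle libraries. The groups did not overlap, as in 9.99% of all genes tested in this direction, and SLIT2 replicates 1 and 2 were the lowest. The difference was -0.88 (SE 0.26, adjusted p = 0.0644, 0.0658 with the replicate block, 0.0245 with the set as a block and 0.264 with each pair of duplicates averaged). Replicates 1 and 2 gave -1.60 and replicates 3 and 4 gave -0.16, and the interaction test between the sets gave an adjusted p of 0.00646.

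Separase is held inactive by securin, the product of Pttg1, which varied little. Pttg1 differed by -0.07 (SE 0.072, adjusted p = 0.605), with a range of 9.25 to 9.40 in SLIT2 libraries and of 9.23 to 9.47 in vehicle libraries. The log2 ratio of Espl1 to Pttg1 was -4.35 ± 0.36 in SLIT2 libraries and -3.54 ± 0.55 in vehicle libraries (SD, n = 4 each). The difference was -0.81, with -1.58 in replicates 1 and 2, against -0.03 in replicates 3 and 4. Cdc20, an activator of the ubiquitin ligase that ends mitosis, differed by -0.11 and Ube2c, the ubiquitin-conjugating enzyme of that ligase, by -0.30, and neither was called.

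In the midzone and cytokinesis group, Kif23 and Cit fell among 9 genes. Kif23 (ENSMUSG00000032254, chromosome 9, 61915905 to 61946774) encodes MKLP1, the kinesin of the centralspindlin complex at the spindle midzone. Its values were 7.93, 7.76, 7.62 and 7.53 in SLIT2 libraries and 9.17, 9.13, 9.0 and 9.05 in vehicle libraries. Each SLIT2 value lay more than 1 unit below each vehicle value, in either set. The difference was -1.38 (SE 0.094, limma adjusted p = 9.2e-05, and 0.027 with duplicates averaged), a linear level 61.5% lower. Replicates 1 and 2 gave -1.30 and replicates 3 and 4 gave -1.45.

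The partner of Kif23 in the same complex had a smaller difference. Racgap1, a GTPase-activating protein that forms centralspindlin with MKLP1, had 8.89, 8.89, 8.66 and 8.67 in SLIT2 libraries and 9.41, 9.35, 8.79 and 8.94 in vehicle libraries. Its difference was -0.34 (SE 0.15, adjusted p = 0.183, and 0.0149 with the block). The log2 ratio of Kif23 to Racgap1 was -1.07 ± 0.085 in SLIT2 libraries and -0.03 ± 0.23 in vehicle libraries (SD, n = 4 each). The difference was -1.03, with -0.82 in replicates 1 and 2 and -1.25 in replicates 3 and 4.

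**Figure D3:**
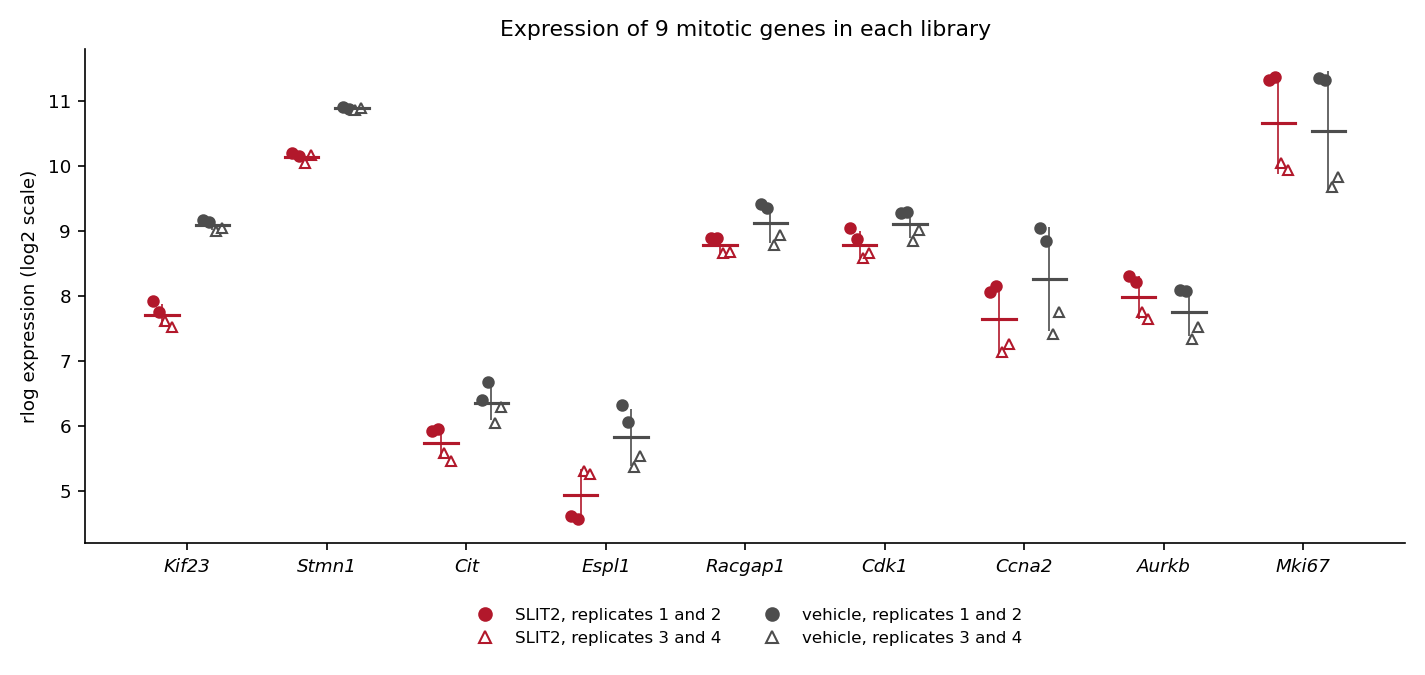
rlog expression (log2 scale, y axis) of 9 genes in each library, SLIT2 in red and vehicle in grey, with replicates 1 and 2 as circles and replicates 3 and 4 as open triangles. Lines are group means with the SD (n = 4). Kif23 and Stmn1 separate the groups clearly, while Ccna2 and Mki67 separate mainly by set.

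Cit encodes citron kinase, which acts in late cytokinesis (chromosome 5, 115845278 to 116008947). It had 5.93, 5.96, 5.59 and 5.47 in SLIT2 libraries and 6.41, 6.68, 6.05 and 6.29 in vehicle libraries. The groups did not overlap, although SLIT2 replicate 2 and vehicle replicate 3 were close. The difference was -0.62 (SE 0.16, adjusted p = 0.0414, 0.00314 with the block and 0.0489 with duplicates averaged). The set of replicates 1 and 2 gave -0.60 and replicates 3 and 4 gave -0.64. The call was lost without any single library other than vehicle replicate 3, with adjusted p-values up to 0.102.

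The other cytokinesis genes had smaller differences or differed mainly by set. Prc1, which cross-links midzone microtubules, had a difference of -0.40 (block adjusted p = 0.0325) and Anln, of the ring scaffold anillin, had -0.36 (0.0238). Ect2, the exchange factor that switches on RhoA at the division site, differed by -0.20 and Kif14, of a midbody kinesin, by -0.30, and neither was called. Kif20a and Kif20b, kinesins of the midzone and midbody, differed by -0.12 and 0.20 with adjusted p-values of 0.843 and 0.832.

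The proliferation marker Mki67 and Top2a, the gene of topoisomerase II alpha, are used to mark dividing cells. Top2a had 9.91, 10.08, 9.37 and 9.48 in SLIT2 libraries and 10.55, 10.50, 9.52 and 9.64 in vehicle libraries, a difference of -0.34 (SE 0.28, adjusted p = 0.506, and 0.0277 with the block). Mki67 had 11.32, 11.36, 10.04 and 9.94 in SLIT2 libraries and 11.34, 11.32, 9.68 and 9.82 in vehicle libraries. SLIT2 and vehicle values of Mki67 were interleaved in replicates 1 and 2, and the sets were far apart in each group. The difference was 0.12 (SE 0.51, adjusted p = 0.919, and 0.183 with the block), 0.01 in replicates 1 and 2 and 0.24 in replicates 3 and 4.

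**Figure D4:**
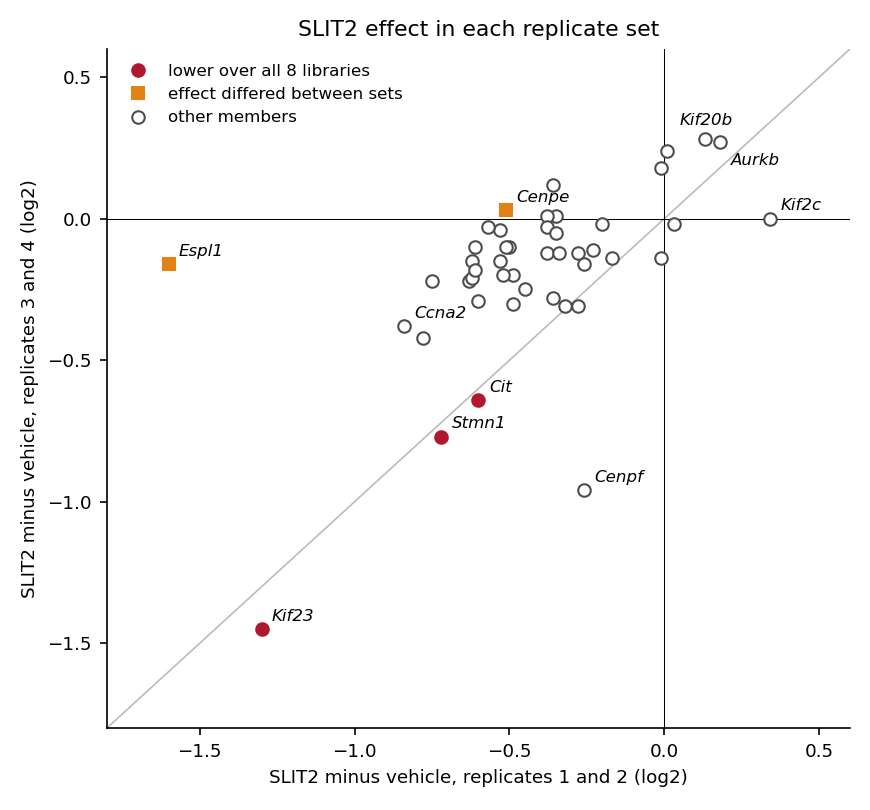
Difference of SLIT2 minus vehicle (log2 scale) for each of the 46 genes in replicates 1 and 2 (x axis) and in replicates 3 and 4 (y axis), each a mean of 2 libraries against 2, with the line of equal values. Kif23, Stmn1 and Cit (red) lie near that line, most other genes lie above it, and Espl1 and Cenpe (squares) passed the test of the difference between the sets.

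The effect in replicates 3 and 4 was less negative, or more positive, than that in replicates 1 and 2 for 38 of the 46 genes, or 82.6%, against 50.5% of all genes tested. Espl1 and Cenpe passed the test of the difference in that direction, as did 2.12% of all genes. Kif23, Stmn1 and Cit had adjusted p-values of 0.530, 0.726 and 0.935 in that test. A p that misses the threshold does not show equal effects.

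Other genes of mitosis were counted from a list of 129 genes, of which 125 were tested. Without a block 7 fell (5.6%, against 6.58% of all genes) and 2 rose, and with the replicate block 36 were lower (28.8%, against 16.4% of all genes) and 5 higher (4.0%, against 16.6%). Their median difference was -0.11. Among those with the smallest p were Wee1, a kinase that holds back CDK1 (-0.61, limma adjusted p = 0.00122), and Spc24 of the NDC80 complex (-0.58, 0.0114). They also included Haus1 of the augmin complex (-0.32, 0.0166), the kinetochore gene Mis12 (0.20, 0.0202) and the mitotic kinase gene Nek7 (-0.17, 0.0214). Mis12 rose, while Wee1, Spc24, Haus1 and Nek7 fell.

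Of 17 tested regulators of the mitotic programme 2 rose (11.8%, against 6.76% of all genes), E2f5 by 0.36 (adjusted p = 0.0228) and Nfyc, a subunit of NF-Y, by 0.18 (0.0436), and none fell, with 2 lower at an unadjusted p under 0.05. With the block 5 were lower (29.4%, against 16.4% of all genes) and 3 higher (17.6%, against 16.6%). Foxm1, an activator of mitotic genes, had 7.62, 7.50, 6.57 and 6.75 in SLIT2 libraries and 8.35, 8.05, 7.06 and 7.18 in vehicle libraries. SLIT2 libraries lay lower within each set, with -0.64 over replicates 1 and 2, against -0.46 over replicates 3 and 4, and the difference of -0.55 passed with the replicate block (adjusted p = 0.00214) and not without it (0.392). Mybl2, of the B-Myb subunit of MYB-MuvB, differed by -0.50 (0.0908, and 0.0247 with the block). E2f4, of the DREAM complex, differed by -0.01 (0.940) and Cdkn1a, of the CDK inhibitor p21, by 0.24 (0.584, and 0.00901 with the block). The block calls of Foxm1, Mybl2 and Cdkn1a also take near-duplicate libraries as separate samples.

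Genes of earlier cell cycle phases were set beside the mitotic genes. Of 50 replication and S-phase genes 3 fell (6.0%, near the 6.58% of all genes) and none rose, with 1 higher at an unadjusted p under 0.05. With the block 21 were lower (42%, against 16.4% of all genes) and 1 higher. Cdt1 and Mcm6, which license replication origins, fell by 0.43 and 0.57 and Pcna, the polymerase clamp, by 0.45 (limma adjusted p = 0.00287, 0.00289 and 0.0438). Of 12 G1 cyclins, kinases and inhibitors 3 fell (25%, against 6.58% of all genes) and 1 rose (8.33%, against 6.76%). Ccnd1, of cyclin D1, fell by 1.24 (adjusted p = 1.97e-04), Myc by 0.87 (2.6e-04) and Cdk6, a partner of cyclin D1, by 0.74 (5.13e-04). In replicates 1 and 2 they fell by 1.30 (Ccnd1), 0.96 (Myc) and 0.79 (Cdk6), and in replicates 3 and 4 by 1.18, 0.77 and 0.68.

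Markers of other cell types were compared between the groups, as sums of linear rlog values over the listed genes above the minimum for testing. Of 10 progenitor markers Kit and Cd34 were tested and neither passed without a block, while Kit was called lower with it (-0.51, adjusted p = 0.0382). Their sum ranged from 49.0 to 58.6 in SLIT2 libraries and from 55.8 to 72.8 in vehicle libraries, while Ctsg, Ms4a3 and Prtn3 were listed at 0. Of 8 neutrophil markers 3 were tested, with sums of 3740 to 4810 in SLIT2 and 2460 to 2830 in vehicle libraries, where Csf3r rose by 0.68 (limma adjusted p = 0.00215), Cxcr2 and S100a8 did not pass, and Ly6g was listed at 0. Pf4 and Ppbp, of 8 erythroid and megakaryocytic markers, had sums of 987 to 5060 in SLIT2 and 525 to 1470 in vehicle libraries, Hbb-bs was listed at 0, and neither passed without a block. Pf4 and Ppbp differed by 1.36 and 1.14, and with the replicate block both were called higher (adjusted p = 0.000715 and 0.0134), though not with duplicates averaged (0.0512 and 0.133). Cd4, the lymphocyte marker tested of 8, fell by 0.60 (adjusted p = 0.00824), with 671 to 867 in SLIT2 and 936 to 1210 in vehicle libraries. Of 8 stromal and endothelial markers 5 were tested, with sums of 615 to 942 in SLIT2 and 528 to 844 in vehicle libraries, where Col3a1 rose by 0.66 (adjusted p = 0.0422), and Pecam1 and Col1a2 did not pass. Xcr1, of 6 dendritic markers, had 19.7 to 25.6 in SLIT2 and 20.8 to 31.8 in vehicle libraries and did not pass, and of 6 mast cell and basophil markers 0 reached the minimum and Cpa3, Fcer1a and Tpsb2 were listed at 0. The macrophage markers summed to 860000 to 1120000 in SLIT2 libraries and 826000 to 1090000 in vehicle libraries, where Mrc1 and Fcgr1 rose by 1.18 and 1.16 and Cd68 fell by 0.25 (adjusted p = 0.00125, 0.0016 and 0.0183). The part of other cell types in the mitotic genes was not tested.

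The reads of some of these genes could include those of a neighbour. Of the 46 genes, 11 share between 53 and 1271 exonic bases with a gene on the opposite strand, among them Kif20a with Cdc23, Prc1 with Rccd1, Kif4 with Pdzd11, Ube2c with Tnnc2 and Ccna2 with Exosc9. How the counting treated strand is not stated in the labels, so such reads may be shared. Stmn1 shares 66 bases with Gm23634 and Top2a 122 bases with Gm23451 on the same strand. Kif23 and Cit share none in GENCODE M21.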

How the data were processed

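RNA from 8 BMDM samples was read as 101 bp pairs from a stranded mRNA kit, per the labels' protocols. FastQC 0.11.9, SAMtools 1.7, Picard 2.23.8, STAR, DESeq2 and Salmon, with mm10 and GRCm38, are named in the submitters' processing notes without roles. The deposited values, named rlog counts by the authors, are on a log2 scale; rlog corrects for library size and shrinks low genes towards their mean, so their differences are understated. No read counts were used here: depth is unknown.

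Genes with a mean of at least 4 were tested by limma 3.58.1 in R 4.3.3 (eBayes with trend, two-sided, Benjamini-Hochberg over 11851 genes, threshold 0.05), treatment only, after tests on simulated data. Alternatives were the replicate block, the set as a block, averaged duplicates, single sets, filters, scalings, variance priors and leaving out each library. The replicate block treated numbers as pairs, which no label states. Deviations from group means correlated across genes between same-numbered SLIT2 and vehicle samples (0.637, 0.671, 0.753 and 0.587). Differently numbered samples of the same set correlated similarly. SLIT2 replicates 1 and 2 gave 0.722 and 0.609 with vehicle replicates 2 and 1, and SLIT2 replicates 3 and 4 gave 0.601 and 0.679 with vehicle replicates 4 and 3. Within sets there was little pairing by number (-0.042 for replicates 1 minus 2, 0.088 for 3 minus 4). The correlations thus show the shared sets and give little ground for pairs by number. No label says that replicates are separate cultures or animals, so p-values reflect only the spread among these libraries, which may be technical.

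Positions and lengths are from GENCODE M21 (41157 identifiers matched). Members and lists were chosen with earlier results of these data known. Every member is named. Values per library are given for called members and the smallest p of each step, and, chosen after values were seen, for Racgap1, Ccna2, Cenpf, Aurkb, Mki67 and Foxm1. Lists give their 6 (mitosis) or 3 smallest p, plus Ccnd1, Cdkn1a, Myc, Foxm1, Mybl2 and E2f4; Cd68 was added as a called marker, and some listed genes are not reported here. Figures used matplotlib 3.10.9.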

Additional observations from a re-analysis of the deposited data

Results flagged for a closer look

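Espl1 was flagged because its SLIT2 effect differed between the replicate sets by 1.43 (replicates 3 and 4 minus 1 and 2, SE 0.17, limma interaction adjusted p = 0.00646), with -0.16 in replicates 3 and 4 and -1.60 in replicates 1 and 2. Cenpe was flagged for the same reason, with a difference of 0.55 between the sets (adjusted p = 0.0454). Pttg1 was flagged because SLIT2 replicate 4, at 9.40, stood apart from the other SLIT2 libraries, at 9.25 to 9.27. It was the only such library among 92 groups of 4 values examined. For independent values chance flags about 1 in 20, but these groups hold pairs of near-duplicates, so that rate need not apply.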

How the results depend on the processing

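The fall of Kif23 and Stmn1 passed under all 22 alternatives. Cit lost its call without a filter (adjusted p = 0.0588), with a minimum difference of 0.25 (0.397) and without any single library but vehicle replicate 3 (0.0543 to 0.102). Without a block 3 members were called lower, 0 higher and 1581 genes in all; with the replicate block these were 19, 1 and 3912, and calls in the other alternatives are given in the same order. With the set as a block these were 25, 1 and 4652, in replicates 1 and 2 only 33, 1 and 3962, and in replicates 3 and 4 only 5, 0 and 2880. The last fits rest on the spread within duplicates. With duplicates averaged 688 genes were called, with a minimum difference of 0.25 there were 374, and members called lower were 3 and 2. Without single libraries 1021 (SLIT2 replicate 2) to 1254 genes were called, 2 to 3 members were lower and 0 higher. The median of the members was then -0.46 to -0.135, in fits with the sets unequal between the groups. A CHR began and ended before the start in 40.5% of members' promoters, against 81.0% in the whole 300 bases; fewer bases were searched.

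The sign changed for 10 members, none called in either fit. In replicates 3 and 4 only, Aurka differed by 0.01, Cenpe by 0.03, Nuf2 by 0.01, Incenp by -0.02 and Kif20a by 0.12, and in replicates 1 and 2 only Cenpa by -0.01. Incenp differed by -0.01 with quantile normalization and by 0.00 with libraries centred on their medians. Without single libraries Ccnb1 ranged from -0.33 to 0.00, Incenp from -0.10 to 0.10, Kif2c from -0.03 to 0.39, Kif20a from -0.29 to 0.05, Kif20b from -0.12 to 0.49 and Mki67 from -0.16 to 0.39. Leaving out a library made the sets unequal between the groups, and these fits had no term for the set. Within replicates 1 and 2 and within replicates 3 and 4, Ccnb1 gave -0.23 and -0.11 and Kif2c 0.34 and 0.00. Kif20b gave 0.13 and 0.28 and Mki67 0.01 and 0.24. Ccnb1, Kif20b and Mki67 thus kept their sign there, while Incenp and Kif20a did not. Kif2c, at 0.00 in replicates 3 and 4, had no sign in that set. The cause of the sign changes was not tested. The shrinkage of rlog and the unknown depth limit the low genes, such as Espl1 and Kif14.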
